A study of Rattus norvegicus with 6 samples.

Results

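The miR-29 family consists of small RNAs that share one seed, the stretch near the 5′ end with which a microRNA (miRNA) finds its target mRNAs. In the rat it has the members rno-miR-29a, rno-miR-29b and rno-miR-29c. They were taken here by name, as the targets whose rat name in the scanner files is one of these 3, without the complementary star strands. They are 3 of the 679 rat-named miRNAs and of the 5560 miRNA targets of all species on the array. The 3 were read for their level and their relative level in kidney, and for the difference between kidneys of rats given aristolochic acid (AA) and of untreated rats.

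Kidney RNA came from 6 male Fisher 344 rats of the Big Blue transgenic line, which carries a reporter transgene for mutations in every animal of both groups. The 3 AA animals, replicates 19, 20 and 21, started at an age of 6 weeks and received AA as its sodium salt by gavage, at 10.0 mg/kg on 5 occasions each week over 12 weeks, with kidneys taken 1 day after the last dose. The 3 control animals, replicates 13, 14 and 15, had the same strain, transgene, sex, age at start and length of study. They are given as untreated, so gavage itself cannot be told apart from AA. Each array held RNA of whole kidney tissue from 1 animal, in 1 colour (Cy3), so fewer cells of a type and less RNA per cell cannot be told apart.

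AA is a plant toxin that forms DNA adducts in tubule cells and causes a kidney disease marked by interstitial fibrosis, and it is a kidney carcinogen. The miR-29 guide strands repress mRNAs of extracellular matrix proteins, among them fibrillar collagens, elastin and fibrillin, and transforming growth factor beta lowers them in fibroblasts and kidney cells. For this reason the family is known as antifibrotic. The arrays measured neither collagen mRNA nor scar tissue, so the name is background here and not a result.

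The mature sequences are shown because the members differ at few bases, which bears on how far an array can tell them apart. They are the targets as the scanner files list them, 5′ to 3′, with the seed (bases 2 to 8) in capitals.
rno-miR-29a: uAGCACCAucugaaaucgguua
rno-miR-29b: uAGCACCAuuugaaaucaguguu
rno-miR-29c: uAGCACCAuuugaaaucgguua
All 3 are identical to the RefSeq mature sequences named rno-miR-29a-3p, rno-miR-29b-3p and rno-miR-29c-3p. Counted from 1 at the 5′ end, rno-miR-29a and rno-miR-29c have equal length and differ by 1 substitution, C10U from 29a to 29c. From rno-miR-29b to rno-miR-29c the substitutions are A18G, G21U and U22A, and 29c is 1 base shorter. No other of the 693 rat mature names in the RefSeq table has this seed.

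In the RefSeq annotation of the rat assembly GRCr8, the members come from 2 gene pairs. Mir29a holds its mature sequence at chr4:60617968-60617989 on the minus strand, and Mir29b1, one of 2 genes that give rno-miR-29b, holds it at chr4:60618342-60618364 on the same strand. The hairpins of this pair are 291 bases apart and overlap no annotated gene. On chromosome 13 and the plus strand, Mir29b2 holds rno-miR-29b at chr13:109098882-109098904 and Mir29c holds rno-miR-29c at chr13:109099412-109099433. These hairpins are 447 bases apart and lie within the long noncoding RNA gene LOC102550527. An array cannot say from which of its 2 genes rno-miR-29b came.

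One array stood apart. AA replicate 20 had 66.8% of the 1132 tested targets well above background and the other 5 arrays had 84.9% to 97.9%, where well above background means a signal more than 3 robust SDs over the median of the empty spots. AA replicate 20 also read miR-122, the main liver miRNA, at a deposited intensity of 15190, while the other arrays read 8.17 to 48.5. The members and the miRNAs whose direction turned on this array are given with and without it.
The kidney label was set against miRNAs of renal epithelium. Of 10 such markers 8 entered the test, miR-194, miR-10a and the miR-200 and miR-30 members among them, while rno-miR-204 and rno-miR-215 were below 32 on every array (hsa-miR-215, mdo-miR-215 and xtr-miR-215, targets of other species, were not). Of 5 leukocyte markers with a rat-named target, miR-150 and miR-146a reached 32 on 6 of 6 arrays, and miR-142-3p, miR-142-5p and miR-223 on none under their rat names.

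rno-miR-29a gave a strong signal in every kidney. Its scanner signal above the empty-spot median, on a linear scale in arbitrary units, was 4246, 1828 and 1872 in the controls, by replicate number, and 6521, 129 and 2478 in the AA animals. It was well above background on all 6 arrays. AA replicate 19 lay above every control, AA replicate 21 within the control range and AA replicate 20 far below every control.
rno-miR-29c was detected at a lower signal. Its scanner signal was 645, 270.0 and 129 in the controls and 874, 17.9 and 105 in the AA animals. All 6 arrays were well above background, but AA replicate 20 passed its limit of 16.3 only narrowly. The control and AA ranges overlapped.

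rno-miR-29b stood near background. Its scanner signal was 6.84, 7.63 and 3.15 in the controls and 17.5, 13.5 and 5.88 in the AA animals. Only AA replicate 19 was well above background, with a limit of 9.18 there, and no control array was. In the authors' normalized table its intensity ran from 0.0450 to 13.5, so it reached the limit of 32 on 0 of 6 arrays and did not enter the test. No fold is given for it, because the mean of the AA arrays did not pass the lowest level that counts as above background in the controls.

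**Figure D1:**
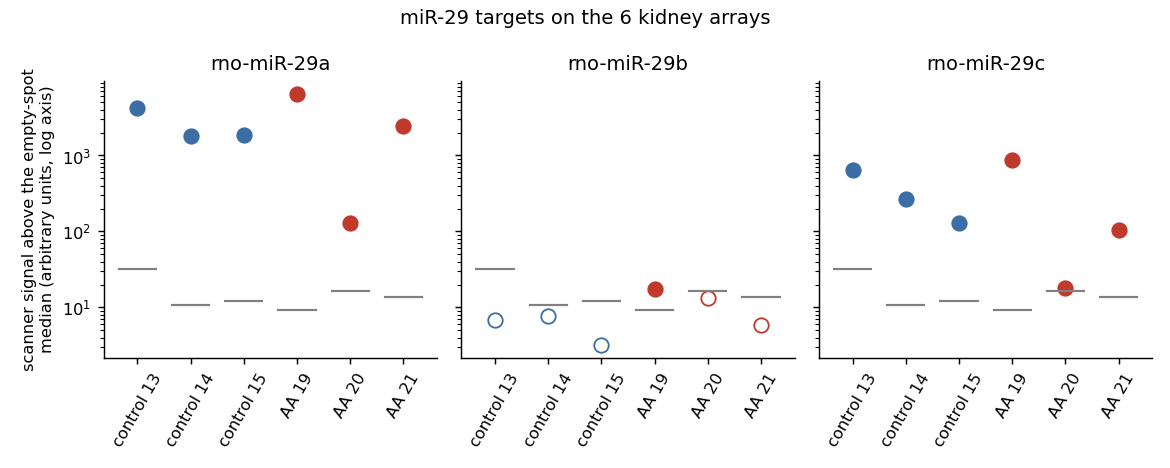
Scanner signal of rno-miR-29a, rno-miR-29b and rno-miR-29c above the empty-spot median (log axis, arbitrary units) on each of the 6 arrays, controls in blue and AA in red. Grey bars mark each array's limit for a signal well above background, and open points fall under it. rno-miR-29a lies above its limit on every array, rno-miR-29b on AA replicate 19 alone.

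In the authors' normalized table, rno-miR-29a and rno-miR-29c were at or above 32 on 6 of 6 arrays. There rno-miR-29a read 1769, 1473 and 1919 in the controls and 2535, 908 and 2187 in the AA animals. rno-miR-29c read 253, 236 and 168 in the controls and 301, 39.8 and 131 in the AA animals. The normalization by the authors brought AA replicate 20 closer to the others, and it remained the lowest array for both. From the scanner signal itself rno-miR-29c reached 32 on 5 of 6 arrays. Both targets are printed on 2 spots per array, and the brighter spot exceeded the dimmer by up to 1.80-fold for rno-miR-29a and 1.93-fold for rno-miR-29c, each time on control replicate 14.

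Neither tested member passed the test of AA against control. After quantile normalization of the scanner signal, rno-miR-29a had a log2 signal of 10.93, 10.65 and 11.15 in the controls and 11.51, 9.54 and 11.45 in the AA animals. Its mean was 10.91 ± 0.25 in controls and 10.83 ± 1.12 in AA animals (SD, n = 3 each). The log2 change was -0.08 with an SE of 0.54 and a 95% interval from -1.35 to 1.19 (limma, Benjamini-Hochberg adjusted p = 0.956). The AA spread was set by replicate 20, which lay below the controls while replicates 19 and 21 lay above them.
rno-miR-29c had a log2 signal of 8.38, 8.22 and 7.92 in the controls and 8.56, 6.48 and 7.76 in the AA animals. The means were 8.17 ± 0.23 and 7.60 ± 1.05 (SD, n = 3 each), a log2 change of -0.57 with an SE of 0.52 and a 95% interval from -1.78 to 0.64 (limma, adjusted p = 0.885). AA replicate 19 lay above every control and replicates 20 and 21 below them. The intervals reach past a halving of either miRNA and, for rno-miR-29a, past a doubling, so such differences were not detectable with these arrays.

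Thus 0 of the 2 tested members passed the adjusted threshold of 0.05, in either direction, and 0 passed an unadjusted 0.05. Over all 1132 targets tested, 2 were called, or 0.177%, and 56 had an unadjusted p under 0.05. Neither member separated AA from control without overlap. Over all targets 9.98% did, 5.57% with AA wholly lower and 4.42% with AA wholly higher.
Without AA replicate 20 the picture of rno-miR-29a turned. Its log2 change was then 0.56 with an SE of 0.24, both remaining AA animals were above all 3 controls, and it still did not pass the test (limma, adjusted p = 0.592). Of all targets, 17.8% had AA wholly higher with that array left out. The change of rno-miR-29c was then -0.01 with an SE of 0.34 (limma, adjusted p = 0.987).

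**Figure D2:**
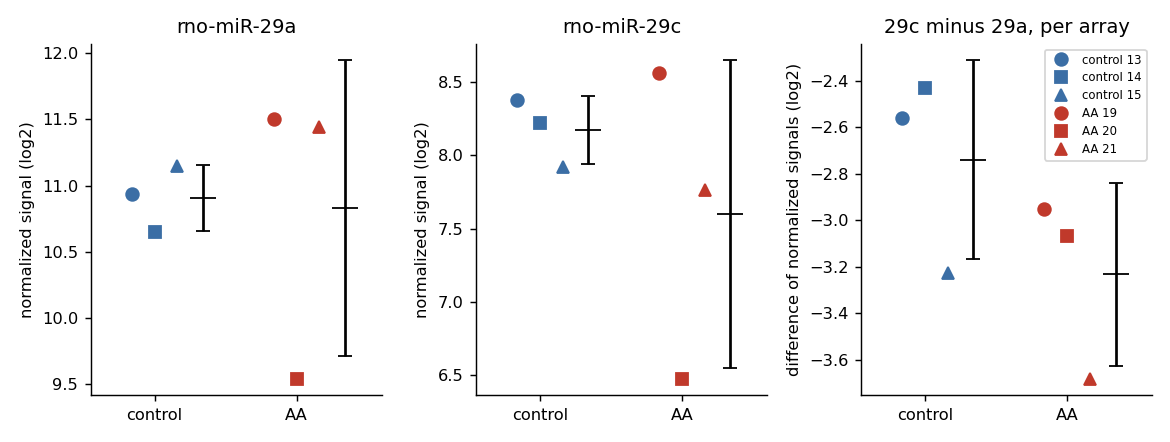
Normalized log2 signal of rno-miR-29a and rno-miR-29c, and their difference within each array, in control (blue) and AA (red) animals. Points are single animals, black bars the mean ± SD of 3. AA replicate 20 lies at 9.54 for rno-miR-29a and 6.48 for rno-miR-29c, and it widens the AA spread in both.

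The relative level of the paralogs was then read within each array, where brightness of the whole array cancels. On the scanner scale the signal of rno-miR-29a exceeded that of rno-miR-29c by 6.58-fold, 6.77-fold and 14.5-fold in the controls and by 7.46-fold, 7.22-fold and 23.7-fold in the AA animals. The ratio lay between 6.58 and 7.46 on 4 arrays, AA replicate 20 included, and was higher on control replicate 15 and AA replicate 21. In the authors' normalized values it was 6.99-fold, 6.25-fold and 11.4-fold in the controls and 8.41-fold, 22.8-fold and 16.7-fold in the AA animals. AA replicate 20, where rno-miR-29c only narrowly passed its limit, was thus among the lower arrays on the one scale and the highest on the other. These are ratios of signals and not of molecules, since each probe binds with its own strength.
On the normalized log2 scale the difference, 29c minus 29a, was -2.56, -2.43 and -3.23 in the controls and -2.95, -3.07 and -3.68 in the AA animals. The means were -2.74 ± 0.43 and -3.23 ± 0.39 (SD, n = 3 each), lower by 0.49 in AA. An exact two-sided permutation test of this difference gave p = 0.3, where 20 arrangements of the arrays allow no p below 0.1. With the authors' normalized values the AA difference was lower by 0.90 (exact permutation p = 0.2), and with the scanner signal above the empty-spot median lower by 0.33 (exact permutation p = 0.5). It turned to 0.16 higher in AA when the signal corrected with the offset of 50 was scaled by array medians or left without normalization (exact permutation p = 1). These settings must give the same ratio, since scaling by the median shifts all targets of an array alike.

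The array also carries miR-29 targets of other species, many of which differ from the rat members by a base or by their ends. In all, 28 targets belonged to the family, 15 of the guide strand and 13 of the star strand. Of the guide targets 9 entered the test, 7 of them from other species, and 0 were called. They are not independent of the members, since 1 rat miRNA can bind several of them. The targets that show this best are printed with the change from the nearest rat member in capitals.
bta-miR-29a: Cuagcaccaucugaaaucgguua
ggo-miR-29a: Cuagcaccaucugaaaucgguu
oan-miR-29a: uagcaccauuugaaaucgguu
pma-miR-29a: uagcaccauuugaaaucAguua
pma-miR-29b: uagcaccauuAgaaaucgguua
bta-miR-29d: uagcaccauuugaaaucgAuua
oan-miR-29b: uagcaccauuugaaaucagugu
tgu-miR-29b: uagcaccauuugaaaucagug

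The cattle and gorilla targets bta-miR-29a and ggo-miR-29a are rno-miR-29a with a C added at the 5′ end, and the gorilla one lacks the last base. On the scanner scale both ranked the arrays in the same order as rno-miR-29a did. After normalization bta-miR-29a was higher on AA replicate 21 (11.435) than on AA replicate 19 (11.229). rno-miR-29a was lower there, at 11.446 and 11.507. bta-miR-29a gave a scanner signal of 4779, 1655 and 1821 in the controls and 5470, 178 and 2465 in the AA animals, with a log2 change of -0.06 (SE 0.44). ggo-miR-29a gave 5663, 2118 and 2534 in the controls and 7404, 215 and 3108 in the AA animals, with a log2 change of -0.01 (SE 0.47).
The platypus target oan-miR-29a is rno-miR-29c without its last base, and it read 814, 375 and 150 in the controls and 1063, 13.9 and 137 in the AA animals. Its log2 change was -0.80 (SE 0.58; limma, adjusted p = 0.885), and -0.16 (SE 0.34) without AA replicate 20, where it was not well above background.

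Targets with a base changed inside rno-miR-29c read far lower than rno-miR-29c, but so did a target with no base changed. The opossum target mdo-miR-29a is rno-miR-29c without its last 2 bases. It gave 83.9, 32.1 and 8.03 in the controls and 87.6, 13.0 and 7.44 in the AA animals. A low signal was thus not particular to a changed base. The lamprey target pma-miR-29a, with G18A, gave 102, 48.4 and 13.3 in the controls and 137, 12.0 and 14.4 in the AA animals. The lamprey target pma-miR-29b, with U11A, did not exceed 42.2, and the cattle target bta-miR-29d, with G19A, did not exceed 24.9. On control replicate 13, for comparison, rno-miR-29c itself stood at 645. rno-miR-29a differs from rno-miR-29c by a single base too, and how much of one is read by the probe of the other was not tested.

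For rno-miR-29b, 2 shorter targets were brighter than the full-length one on all arrays but AA replicate 20, and the shortest was not. The platypus target oan-miR-29b lacks the last base and gave 40.3, 22.4 and 17.5 in the controls and 102, 9.04 and 15.1 in the AA animals. The zebra finch target tgu-miR-29b lacks the last 2 bases and gave 103, 36.9 and 17.7 in the controls and 174, 10.6 and 18.1 in the AA animals. Both were well above background on 5 of 6 arrays, all but AA replicate 20, where full-length rno-miR-29b was so on 1. The gorilla target ggo-miR-29b lacks the last 3 bases, gave 14.4, 5.33 and 1.32 in the controls and 13.8, 12.2 and 5.53 in the AA animals, and was well above background on AA replicate 19 alone. The order of these signals therefore did not follow the number of bases lost.
The log2 change was 0.09 (SE 0.29) for oan-miR-29b and 0.03 (SE 0.35) for tgu-miR-29b, neither past the test, and 0.30 (SE 0.26) and 0.31 (SE 0.33) without AA replicate 20. Which rat miRNA these targets bound was not tested. The targets tgu-miR-29b and ggo-miR-29b lie outside the rule for named miRNAs and were chosen after their values were seen, as was mdo-miR-29a.

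**Figure D3:**
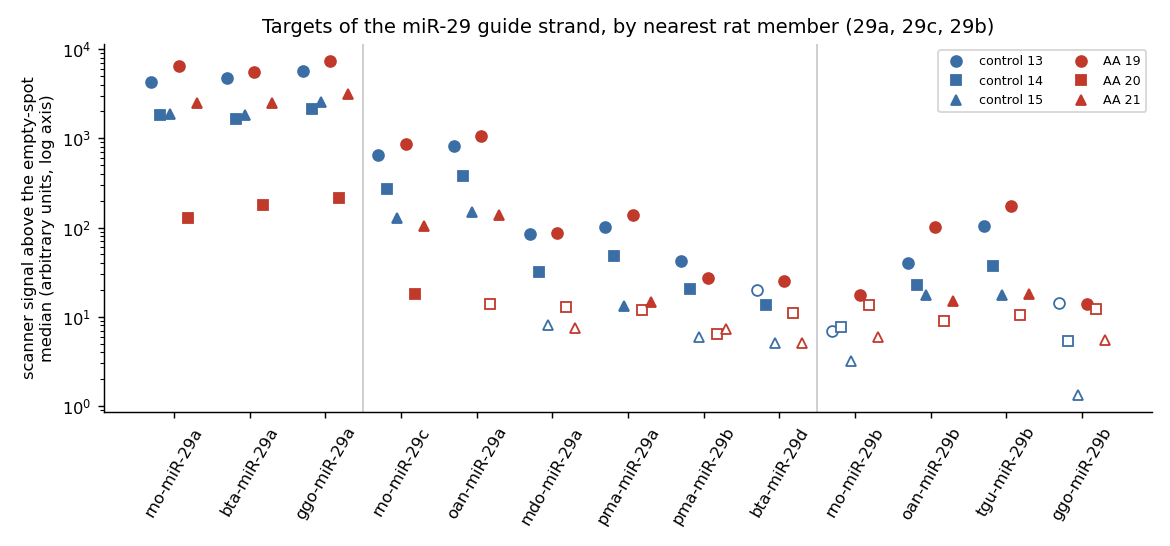
Scanner signal above the empty-spot median (log axis, arbitrary units) of 13 guide-strand targets of the miR-29 family on the 6 arrays, grouped by the nearest rat member, with open points under the array's limit. Targets near rno-miR-29a lie highest on every array. The targets with 1 base changed from rno-miR-29c, pma-miR-29a, pma-miR-29b and bta-miR-29d, fall well below it on control replicate 13 and AA replicate 19. So does mdo-miR-29a, which has no base changed.

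Of the 9 tested guide targets, 7 had a lower mean in AA with all arrays, beside 613 of 1132 targets. Once AA replicate 20 was left out, 7 of the 9 had a higher mean. Under the other scalings of all arrays 5 to 7 were lower. With AA replicate 20 left out 3 of 9 had AA wholly above control, beside 17.8% of all targets. They were rno-miR-29a, bta-miR-29a and ggo-miR-29a, whose targets differ at their ends alone.

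The star strands come from the opposite arm of the same hairpins and have seeds of their own, so they would pair with other mRNAs. Their targets are shown with bases 2 to 8 in capitals.
rno-miR-29a*: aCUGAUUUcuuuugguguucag
rno-miR-29b-1*: uUUCAUAUggugguuuagauuu
rno-miR-29b-2*: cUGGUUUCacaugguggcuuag
rno-miR-29c*: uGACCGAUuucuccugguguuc
The rat star strands were near background as well. rno-miR-29a* and rno-miR-29b-1* were not well above background on any array, and rno-miR-29b-2* was so on 3. Of the rat star strands only rno-miR-29c* entered the test. Its scanner signal was 40.1, 18.2 and 16.1 in the controls and 59.4, 14.6 and 18.6 in the AA animals. Its log2 change was 0.12 with an SE of 0.25 (limma, adjusted p = 0.921), and the groups overlapped. Without AA replicate 20 the change was 0.27 with an SE of 0.21 (limma, adjusted p = 0.747), with AA wholly higher, beside 17.8% of all targets. Of the 13 star targets of all species 4 entered the test and 0 were called. With all arrays mmu-miR-29b-2* (0.22, SE 0.24), oan-miR-29b* (0.30, SE 0.24) and tgu-miR-29b* (0.17, SE 0.24) lay wholly higher in AA. So did 4.42% of all targets. These star targets were well above background on 6 of 6 arrays, at scanner signals of 17.2 to 101.

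Other miRNAs tied to fibrosis gave a setting for miR-29. Of 7 miRNAs listed as promoting it, 5 entered the test. None was called, 3 had an unadjusted p under 0.05, beside 56 of all 1132 targets, and 4 of 5 had a higher mean in AA, beside 519 of 1132. The median log2 change was 0.72, and -0.05 over all targets tested. miR-21, which represses inhibitors of growth factor signalling, had the largest change, 1.56 with an SE of 0.60 (limma, adjusted p = 0.885). miR-199a-3p and miR-214, made from one transcript in fibroblasts and other mesenchymal cells, had changes of 0.74 (SE 0.24) and 0.72 (SE 0.30). These 3 lay wholly higher in AA, as did 4.42% of all targets. The human target hsa-miR-214, however, had a change of 0.40 (SE 0.29) and overlapped between groups. For miR-21, bta-miR-21 changed by 1.23 (SE 0.53) with AA wholly higher, and dre-miR-21 by 1.84 (SE 1.26) with overlap. miR-199a-5p, from the opposite arm of the miR-199a hairpin, had a change of 0.43 (SE 0.34) and overlapped between groups. Without AA replicate 20 its change was 0.88 with an SE of 0.21 (limma, adjusted p = 0.322). AA was then wholly higher, beside 17.8% of all targets. The list's summed deposited intensity was 4087 to 4709 in the controls and 7260 to 11880 in the AA animals. miR-382 and miR-433 did not enter the test.

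Of 14 miRNAs listed as restraining fibrosis besides miR-29, 13 entered the test and 0 were called. In AA 5 had a higher and 8 a lower mean, beside 519 and 613 of all 1132 targets. The median log2 change was -0.15, and -0.05 over all targets. miR-26b had the lowest p, with a change of -0.88 (SE 0.28; limma, adjusted p = 0.871) and AA wholly lower, which remained so without AA replicate 20 (-0.55). With all arrays cfa-miR-26b changed by -0.78 (SE 0.33) with AA wholly lower, and dre-miR-26b by -0.37 (SE 0.43) with overlap. miR-200a and miR-200c, which hold epithelial cells in their state by repressing ZEB factors, lay wholly higher in AA, with changes of 0.58 (SE 0.27) and 0.39 (SE 0.25). miR-200b of the same family had a change of 0.32 (SE 0.25) and overlapped between groups. With the human targets this was the other way round. hsa-miR-200b lay wholly higher in AA (0.30, SE 0.24), and hsa-miR-200c overlapped (0.43, SE 0.26). Over all targets 5.57% lay wholly lower and 4.42% wholly higher in AA.
Without AA replicate 20 the restraining list's median was 0.25, with 11 of 13 means higher in AA, and the promoting list's median was 0.84, with 4 of 5 higher. The median over all targets was then -0.004. How many of all targets had a higher mean without that array was not counted. Again 0 of either list were called.

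**Figure D4:**
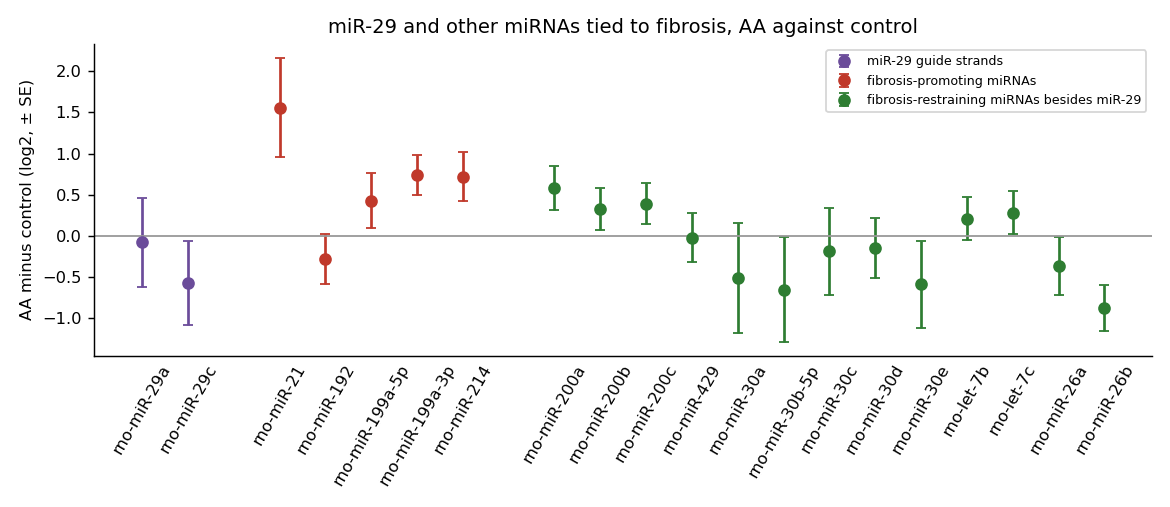
Log2 change, AA minus control, of the tested miR-29 members (purple), of 5 miRNAs listed as promoting fibrosis (red) and of 13 listed as restraining it (green), each with its SE. miR-21 lies highest at 1.56 and miR-26b lowest at -0.88, and none passed the adjusted threshold.

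Markers of the cell types a piece of kidney can hold were read beside miR-29. They share members with the fibrosis lists and are not separate evidence. miR-199a-5p, miR-199a-3p, miR-214 and miR-192 are also on the promoting list. miR-30a, miR-30c, miR-200a and miR-200b are also on the restraining list. All 5 markers of fibroblasts and smooth muscle entered the test. Each had a higher mean in AA (3 of 5 without normalization), beside 519 of 1132 targets. The markers outside the promoting list, miR-143 and miR-145, changed by only 0.06 (SE 0.36) and 0.08 (SE 0.48). Of the 5 markers, 2 lay wholly higher (miR-199a-3p and miR-214), as did 4.42% of all targets, while hsa-miR-214 overlapped. The markers' summed deposited intensity was 2520 to 3794 in the controls and 3483 to 4973 in the AA animals. Of the 8 tested kidney epithelium markers 6 had a lower mean in AA, beside 613 of 1132 targets, and 0 were called. miR-194 lay wholly lower, as did 5.57% of all targets, with a log2 change of -0.82 (-0.53 and still wholly lower without AA replicate 20). Without that array miR-30a (0.32), miR-30c (0.35), miR-10a (0.31) and miR-10b (0.24) turned higher in AA. miR-192 stayed lower (-0.28, and -0.05 without that array), and miR-200a and miR-200b stayed higher. That list summed to 15330 to 17070 in the controls, and to 17430, 9503 and 19670 on AA replicates 19, 20 and 21. AA replicate 20 was thus lowest for the epithelial list as it was for rno-miR-29a and rno-miR-29c. This was not particular to epithelium. That array was also lowest for the summed lists of endothelium (603), erythrocytes (8.36) and fibrosis restraint (66100). The fibroblast, leukocyte and fibrosis-promoting lists had their lowest sum on other arrays. The endothelial miR-126 had a log2 change of -0.28. Without AA replicate 20 it was 0.33 with AA wholly higher, beside 17.8% of all targets. The erythrocyte miR-451 had a change of -0.34, and -0.18 without that array. The 5 leukocyte markers with a rat-named target summed to 1774 to 2398 in the controls and 1311 to 1938 in the AA animals. The 2 tested ones went opposite ways. miR-146a had a log2 change of -0.78 (SE 0.25) with AA wholly lower, while the cattle target bta-miR-146a had -0.58 (SE 0.30) with overlap. miR-150 had one of 0.34 (SE 0.26) with overlap, and 0.45 with AA wholly higher without AA replicate 20. For miR-155, hsa-miR-155 changed by 0.51 (SE 0.31) with AA wholly higher, and dre-miR-155 by 0.23 (SE 0.28) with overlap. In the list for liver, muscle and brain, 2 of 7 entered the test, miR-122 and miR-206, and the list summed to 236 to 579 in the controls and 110 to 15800 in the AA animals. The part of cell composition in the values of miR-29 was not tested.

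The profile over the 6 arrays was finally compared between miRNAs. Each log2 profile was centred on its mean, and likeness was the root mean square difference, which is 0 for equal profiles. Nearest to the mean profile of rno-miR-29a and rno-miR-29c among 177 tested rat miRNAs were miR-126 (0.15), miR-93 (0.16), miR-27b (0.17), miR-92b (0.18) and miR-30e (0.19). Nearest to rno-miR-29a were miR-30c (0.13), miR-93 (0.18) and miR-92b (0.22). Nearest to rno-miR-29c were miR-181b (0.13), miR-30e (0.22) and miR-126 (0.29). The distance between rno-miR-29a and rno-miR-29c themselves was 0.42, and a typical candidate lay 0.61 from rno-miR-29a.
All of these profiles had their lowest value on AA replicate 20. There miR-92b (scanner signal 11.27) and miR-181b (13.45) were not well above background, with a limit of 16.3. With that array left out, the 5 nearest to the mean profile ranked between 15 and 44 of 177, miR-30c ranked 7 for rno-miR-29a and miR-181b ranked 3 for rno-miR-29c. The distances to the mean profile moved less, from 0.15 to 0.18 for miR-126, from 0.18 to 0.22 for miR-92b and from 0.19 to 0.18 for miR-30e, so other miRNAs had come nearer.

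The change of both members was also computed under other ways of handling the arrays. rno-miR-29c stayed below 0 under all 18 alternatives, from -1.03 to -0.01, and rno-miR-29a ran from -0.74 to 0.60 with 4 values above 0. Some of the 18 could not move these changes. Another filter, another test or the median over spots left them at -0.57 and -0.08, so their signs add nothing. The adjusted p lay between 0.410 and 0.997 for rno-miR-29c and between 0.209 and 0.998 for rno-miR-29a, so no alternative called either one.

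**Figure D5:**
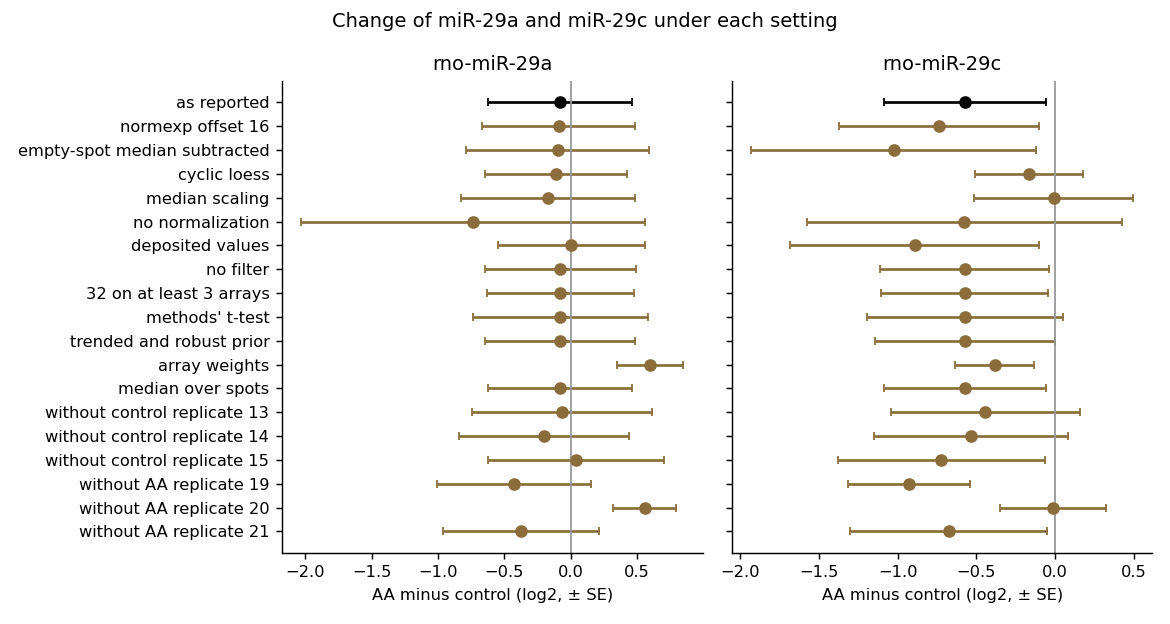
Log2 change, AA minus control, of rno-miR-29a (left) and rno-miR-29c (right) as reported (black) and under 18 alternatives, each with its SE. rno-miR-29a turns above 0 most clearly with array weights (0.60) and without AA replicate 20 (0.56), and rno-miR-29c comes nearest to 0 with median scaling and without AA replicate 20 (both -0.01).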

How the data were processed

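The authors hybridised tailed and tagged small RNA of each kidney to a custom vertebrate miRNA chip and scanned it in Cy3. The deposited scanner files give the median intensity of 15066 spots per array, neither background-corrected nor normalized, with commas as digit separators, which were removed here. A second deposited table holds normalized intensity, which the authors' methods describe as background-subtracted, LOWESS-normalized and filtered at 32, followed by a t-test. The 2 control and AA groups came from the labels, which state separate animals by number and no batch.

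Here scanner intensity was corrected with normexp (offset 50) over every spot. Spots without a miRNA target were dropped, log2 signal was quantile-normalized, and the 2 spots of a target were averaged. The 1132 targets at or above 32 on at least 1 array in the deposited table were tested in limma 3.58.1 (R 4.3.3; lmFit, eBayes), and p was adjusted by Benjamini-Hochberg, with a threshold of 0.05. The code was tested on simulated data with a common spread for all targets, taken from the controls, and no dim array. That run checks the code and does not measure what these arrays could detect. The log2 changes of dim targets are understated by the offset. Arrays left out were left out before normalization. Precision was limited by the 6 arrays and by signal over background.

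The members, the lists of fibrosis and cell type miRNAs and the tests were chosen with earlier results of these data known. Named are all members, rat star strands, targets of other species identical to, holding or 1 base from a member, the 4 lowest p of each fibrosis list, and the 5 and 3 nearest profiles. Star targets of other species, and other-species targets of listed miRNAs, were named after their values were seen. Sequences are the files' own, and coordinates come from RefSeq on GRCr8, since the array files name no build. For promoters of the miR-29 genes no sequence was used.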

Additional observations from a re-analysis of the deposited data

How the results depend on the processing

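The alternatives changed the background correction, the normalization, the filter, the test, the weighting of arrays, the mean over spots or the input table, or left out 1 array. The number of called members was 0 under all 18. The log2 change of rno-miR-29a, -0.08 as reported, reversed with the deposited values (0.0034; limma, adjusted p = 0.998) and with array weights (0.60; adjusted p = 0.209), which gave AA replicate 20 the lowest weight, 0.124. Leaving out 1 array gave -0.43 to 0.56, above 0 without control replicate 15 (0.040) and without AA replicate 20 (0.56). rno-miR-29c ranged from -0.93 to -0.01 in the same way. The change of the 29c to 29a ratio, -0.49 as reported, was -0.76 to -0.30 with 1 array left out. It was 0.161 under median scaling, and by construction the same without normalization, since that scaling shifts all targets of an array alike. The cause of the reversal was not tested. The median change of all targets was -0.05 as reported, 0.24 under median scaling and -0.32 without normalization. Relative to it rno-miR-29a stood at -0.41 and rno-miR-29c at -0.25 under both, which must be equal for the same reason. The 2 targets called of 1132 became 0 without normalization, with median scaling and with cyclic loess, 44 with array weights, and 0 to 3 with 1 array left out, 3 of them without AA replicate 20 and 0 without any other array. An unadjusted p under 0.05 was met by 56 targets as reported, 70 under cyclic loess, 24 under median scaling, 5 without normalization, 491 of 5560 without a filter, 243 with array weights and 20 to 129 with 1 array left out. The lists and profiles without AA replicate 20 were added after seeing the data. The change and ratios of rno-miR-29b are not given because it was below 32 throughout, so 1 ratio was tested and not 3. A slide or scan block was not run because neither labels nor files name one. No paired analysis was possible because the groups share no replicate number. With 3 animals a group and a lone dim array in AA, changes smaller than the printed intervals could not be seen, and targets near background give limits rather than levels.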
